A study of Mus musculus with 7 samples.

Results

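Carriers that move amino acids across the membranes of C2C12 cells were compared between cells that had received 2 kinds of exosome. C2C12 is an established line of mouse myoblasts, which fuse into multinucleate myotubes when serum is withdrawn, and the cells of every array derive from it. Donor C2C12 myotubes had been exposed to 0.5 mmol/l palmitate, or to BSA alone as the control, and the vesicles they then released were given to other C2C12 cells. The recipient cells of the EXO-Post BSA group (n = 4) and of the EXO-Post Palm group (n = 3) therefore shared the line, the serum-free incubation and the receipt of muscle exosomes, and differed in the treatment of the donor cells. Every array was labelled as a biological replicate and as myoblast, and the study calls the recipients myotubes. All 14 myotube marker probes were well above background on all 7 arrays, as was the satellite cell gene Pax7, while Myf5 was on none. No array of cells without exosomes was among those analysed, so the values compare 1 exosome preparation with another.

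Members were all probes whose gene name on the array starts with Slc1a, Slc3a, Slc6a, Slc7a, Slc36a, Slc38a or Slc43a. They were 77 of 39429 probes and stood for 62 gene names, all of them current symbols of the RefSeq mouse gene table. A probe was tested where its signal was well above background on at least 3 arrays of 1 group, which held for 38 probes of 32 gene names (49.4%, against 54.8% of all probes). The name rule also took in Slc7a6os, which is read from the strand opposite to Slc7a6 and is not a transporter, and the monoamine carriers of the Slc6 family. Each value below is the log2 signal of a probe minus the 75th percentile of its array, and each difference is EXO-Post Palm minus EXO-Post BSA. Levels of different probes cannot be set against each other on this scale.

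Amino acids enter muscle cells through carriers that exchange one amino acid for another or that use the sodium or proton gradient. System A carriers of the Slc38 family, such as SNAT2 (Slc38a2), bring in small neutral amino acids with sodium. The heterodimer of Slc7a5 (LAT1) with the heavy chain Slc3a2 (CD98) takes up leucine and other large neutral amino acids in exchange for intracellular glutamine. Leucine, and arginine sensed at the lysosome where Slc38a9 sits, feed into mTORC1 and muscle protein synthesis. When amino acids run short, ATF4 binds C/EBP-ATF elements in its target genes, and several carriers are among these targets.

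The probes below stand for the 2 exchangers that link glutamine to leucine uptake, LAT1 and the glutamine carrier ASCT2 (Slc1a5). Both are 60 bases long and are shown as the array annotation gives them. The Slc1a5 probe lies at chr7:17383027-17383086 on the plus strand of mm9 and the Slc7a5 probe at chr8:124430996-124431055 on the minus strand. Exons and UTRs were not placed on mm9 here.

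Slc1a5 probe: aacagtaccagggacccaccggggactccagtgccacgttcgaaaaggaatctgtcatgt

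Slc7a5 probe: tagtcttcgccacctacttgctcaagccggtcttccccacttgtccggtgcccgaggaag

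A second set of sequences shows the promoters of 2 carriers with a C/EBP-ATF element near the start of transcription, of which the first (Slc7a11) was not well above background on any array and the second (Slc1a4) was tested. The letters TGATGNAA were searched on both strands of the RefSeq promoters of GRCm38.p6, which run from 250 bases before to 50 bases after each start. They occurred in 1304 of 32851 promoters (3.97%). Of the 62 members 44 had at least 1 promoter in the table, 64 promoters in all, and 4 of these promoters held the letters (6.25%). They belonged to Slc1a4, Slc7a7 and Slc7a11. Capitals mark the matches, and the sequences end 12 bases after the start. The Slc7a11 sequence is chr3:50443602-50443863 on the minus strand, with 1 match in each orientation, beginning 66 and 47 bases before the start. The Slc1a4 sequence is chr11:20332702-20332963 on the minus strand, and its match, on the opposite strand, begins 4 bases before the start and runs across it.

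Slc7a11 promoter: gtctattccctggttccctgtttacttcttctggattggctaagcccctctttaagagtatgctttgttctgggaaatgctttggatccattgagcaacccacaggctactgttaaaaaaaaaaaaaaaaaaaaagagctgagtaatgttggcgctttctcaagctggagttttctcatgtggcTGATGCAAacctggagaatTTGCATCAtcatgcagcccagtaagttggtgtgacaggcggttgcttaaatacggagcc

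Slc1a4 promoter: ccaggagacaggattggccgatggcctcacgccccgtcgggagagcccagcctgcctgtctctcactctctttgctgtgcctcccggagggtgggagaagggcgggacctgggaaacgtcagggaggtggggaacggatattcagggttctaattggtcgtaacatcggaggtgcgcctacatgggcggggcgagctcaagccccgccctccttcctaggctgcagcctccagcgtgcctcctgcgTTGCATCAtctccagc

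The families differed in how much of them was seen. All 3 Slc43 probes were tested, against 9 of 22 for Slc6, 8 of 19 for Slc7, 8 of 14 for Slc38, 6 of 10 for Slc1, 3 of 7 for Slc36 and 1 of 2 for Slc3. Of the 77 probes 29 were well above background on all 7 arrays and 22 on none. The 15 gene names with no probe well above background on any array included the glutamate carriers Slc1a1 and Slc1a2, the cystine carrier Slc7a11 (xCT), the LAT2 light chain Slc7a8, the liver System A carrier Slc38a4, and Slc3a1 with its partner Slc7a9, which reabsorb cystine in the kidney. A further 15 names were well above background on 1 to 4 arrays without reaching the rule, among them the neutral carriers Slc38a3 and Slc38a5 and the cationic carrier Slc7a3. Probes of 3 of the 21 carriers listed for muscle amino acid uptake (Slc7a8, Slc7a11 and Slc38a4) could thus not be compared between the groups. A probe below background bounds the signal of that probe and does not show that the mRNA was missing.

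**Figure D1:**
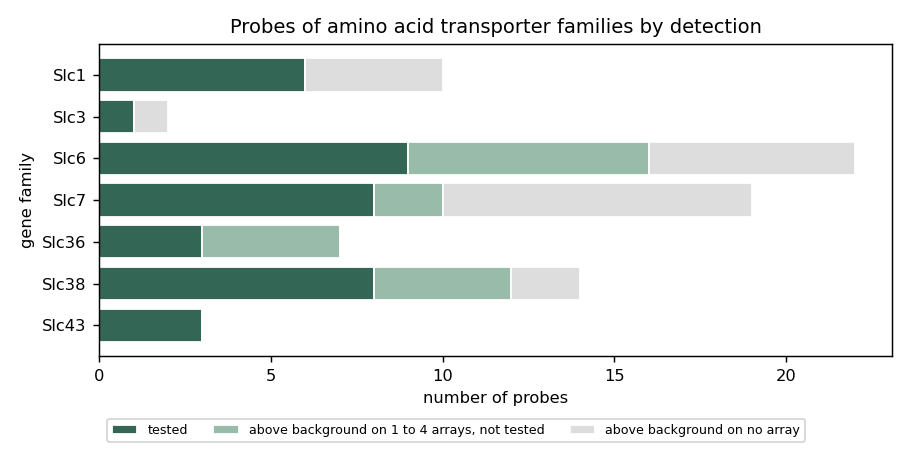
Number of probes (x axis) in each of the 7 gene families (y axis), split into those tested, those well above background on 1 to 4 arrays without reaching the rule, and those on no array. In Slc7, 9 of 19 probes were on no array, while all 3 Slc43 probes were tested.

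No amino acid transporter passed an adjusted p of 0.05 (limma, Benjamini-Hochberg over 21589 probes), where 115 probes did among all tested (0.533%), 100 of them higher (0.463%) and 15 lower (0.0695%). The lowest adjusted p of a member was 0.06. The methods' t-test, run on the same values, also left 0 members after Benjamini-Hochberg adjustment and 4 at an unadjusted p under 0.05. With limma, 6 of the 38 probes had an unadjusted p under 0.05 (15.8%), against 10.0% of all tested probes. They were the glutamate carrier Slc1a3, the neutral amino acid carrier Slc1a4 and the branched-chain carrier Slc43a1 (LAT3) on the higher side and the proline carrier Slc6a7, the glutamate carrier Slc1a7 and the creatine carrier Slc6a8 on the lower side. Higher, these were 3 of 38 against 4.85% of all tested probes, and lower 3 of 38 against 5.19%. The split moved with the scaling, to 0 higher and 3 lower with the median of each array in place of the 75th percentile, where 8.72% of all tested probes were under 0.05. Among the 29 probes well above background on all arrays 3 were higher and 1 lower, where 11.6% of all probes under that filter were higher or lower. Slc1a7 and Slc6a7 are not among the 29. Both entered the test through EXO-Post BSA alone, which favours lower values, so nothing is read from the count on the lower side. The median difference of the members was −0.02, beside −0.023 over all tested probes. Of the members 47.4% lay above 0, and 47.3% of all tested probes did.

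Differences of at least 1 in size occurred in 2 members, Slc1a7 and Slc6a7, and in 5.06% of all tested probes. The median standard error of a member was 0.275, close to the 0.272 of all tested probes. The 95% interval lay wholly between −1 and 1 for 18 of the 38 probes, so a change of at least 2-fold in either direction lay outside the interval for these and inside it for the others. Groups did not overlap for 5 members, 2 higher (Slc1a3 and Slc1a4) and 3 lower (Slc1a7, Slc3a2 and Slc6a7), where 11.3% of all tested probes had groups that did not overlap, 5.40% higher and 5.87% lower. Slc1a7 and Slc6a7 had been tested through EXO-Post BSA alone, and nothing is read from their size or separation. The median over members of the difference from the EXO-Post BSA mean ranged from −0.19 to 0.12 over the EXO-Post BSA arrays and from −0.10 to 0.11 over the EXO-Post Palm arrays.

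**Figure D2:**
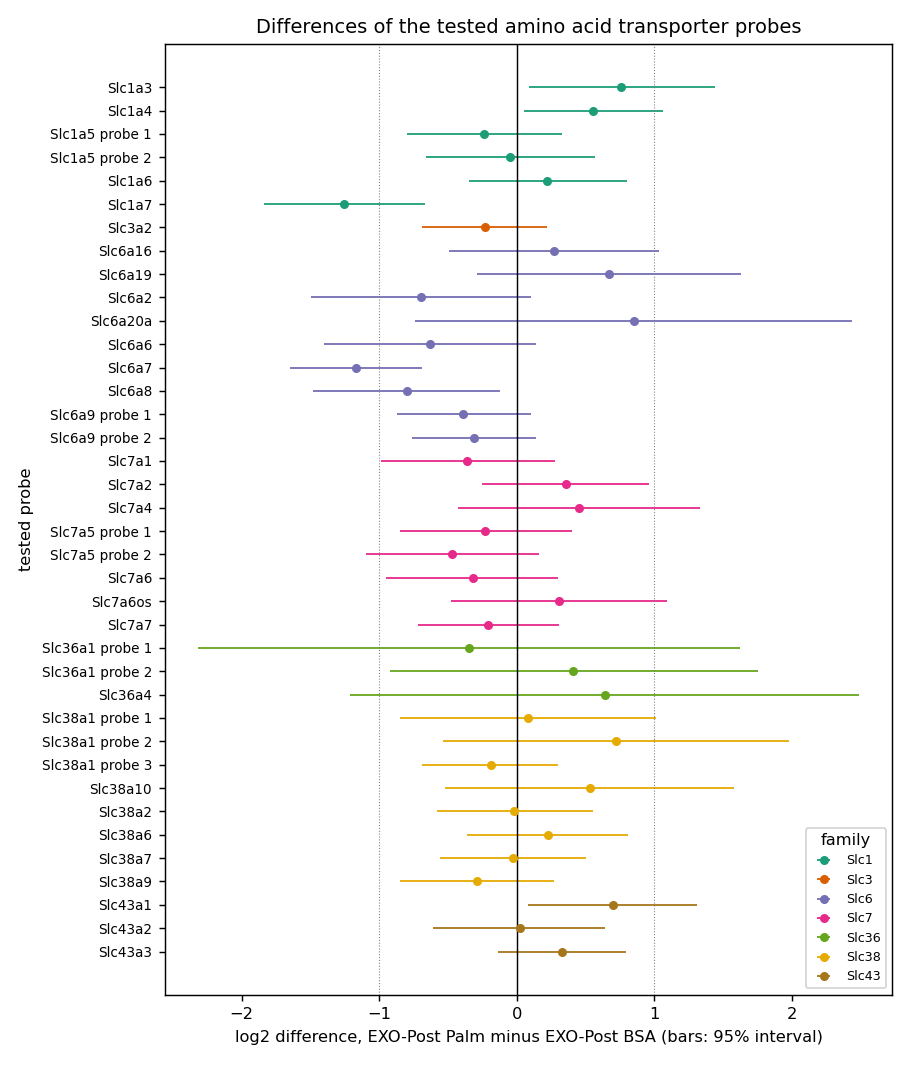
Log2 difference (x axis, EXO-Post Palm minus EXO-Post BSA) of the 38 tested probes (y axis), coloured by family, with bars for the 95% interval of limma. Dotted lines mark −1 and 1, and 18 intervals lie wholly between them.

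The lowest p belonged to Slc6a7, a proline carrier known from brain synapses. It read −3.99, −3.77, −3.66 and −4.05 in EXO-Post BSA and −5.20, −4.79 and −5.14 in EXO-Post Palm, so that every EXO-Post Palm array was below every EXO-Post BSA array. The difference was −1.17 ± 0.21 (SE, 95% interval −1.65 to −0.69, adjusted p = 0.06 with limma). Within slide 1 the difference was −1.31 and within slide 3 it was −1.09. The probe was well above background on 3 of 4 EXO-Post BSA arrays and on 1 of 3 EXO-Post Palm arrays, so it entered the test through EXO-Post BSA alone and a probe chosen this way tends to be lower in the other group. It was not tested where a probe had to be well above background on all arrays. At that brightness the size depended on how background was treated, and it was −0.24 with the normexp correction and −0.43 in the authors' own processed values. The adjusted p was 0.0330 with slide as a random block and 0.143 with slide as a fixed block.

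Slc1a7, a glutamate carrier known from the retina, was read by a probe at chr4:107686063-107686122 of mm9. Its values were −3.26, −2.77, −2.40 and −3.08 in EXO-Post BSA and −3.90, −4.33 and −4.18 in EXO-Post Palm, again without overlap. The difference was −1.26 ± 0.257 (SE, 95% interval −1.84 to −0.67, limma adjusted p = 0.103). It was −0.88 within slide 1 and −1.10 within slide 3. This probe too was dim, well above background on all 4 EXO-Post BSA arrays and on 1 EXO-Post Palm array. It too entered the test through EXO-Post BSA alone, and the difference shrank to −0.60 with normexp and −0.86 in the authors' values. Both genes are known from nervous tissue. Of the neuron markers on the array Snap25 differed by −1.61 (adjusted p = 0.0802), Tubb3 by 0.16 (adjusted p = 0.901) and Syt1 was well above background on no array. The summed level of the list was 2.68 to 3.70 in EXO-Post BSA and 1.74 to 2.56 in EXO-Post Palm, and its part in the differences of Slc1a7 and Slc6a7 was not tested.

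Slc6a8, which brings creatine into muscle, read 3.96, 3.79, 3.74 and 3.65 in EXO-Post BSA and 3.70, 2.79 and 2.47 in EXO-Post Palm. EXO-Post Palm replicate 1 lay among the EXO-Post BSA arrays, and the other two lay below them. The difference was −0.80 ± 0.30 (SE, 95% interval −1.48 to −0.12, limma adjusted p = 0.428, exact permutation p = 0.0571). Replicate 1 shared slide 1 with 2 EXO-Post BSA arrays, where the difference was −0.17, and on slide 3 it was −1.19. With slide as a fixed block it was −0.61, and the unadjusted p of 0.0267 became 0.0969. Of the enzymes that make creatine, Gamt differed by −0.57 (adjusted p = 0.419) and Gatm by −0.50 (adjusted p = 0.531).

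The remaining carriers of the Slc6 family lay on both sides of 0. The taurine carrier Slc6a6 had values of 4.88, 4.71 and 5.08 in EXO-Post BSA and 4.21, 4.88 and 3.67 in EXO-Post Palm. Its spot on EXO-Post BSA replicate 3 had been marked as an outlier and was dropped from the fit, which gave −0.63 ± 0.331 (SE, 95% interval −1.40 to 0.14, adjusted p = 0.585 with limma). With slide as a fixed block the difference was −0.94 (limma unadjusted p = 0.0157), from −0.59 within slide 1 and −1.40 within slide 3. EXO-Post Palm replicate 2 (4.88), alone on its slide, does not bear on that value. For the noradrenaline carrier Slc6a2 the difference was −0.70 ± 0.351 without the slide term and −1.13 with it (unadjusted p = 0.00692, adjusted p = 0.257). Its EXO-Post BSA values of 0.12, −0.16, 0.07 and 0.28 stood beside −0.81, 0.25 and −1.31 in EXO-Post Palm. Replicate 2 of EXO-Post Palm was within the EXO-Post BSA range and, alone on its slide, does not bear on the value with the slide term.

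Glycine enters through Slc6a9 (GlyT1), whose 2 probes share 51 of their 60 bases and are not independent readings. They gave −0.39 ± 0.214 and −0.31 ± 0.198 (SE), with limma adjusted p of 0.597 and 0.648. The highest difference among Slc6 genes was that of the imino acid carrier Slc6a20a, 0.85 ± 0.70 (SE). EXO-Post BSA replicate 4 was low in it at −5.87, against −3.19 to −2.56 on the other EXO-Post BSA arrays and −2.90 to −2.65 on the EXO-Post Palm arrays. Without that array the difference was 0.11, and it was 0.16 in the authors' values. Slc6a19, a neutral amino acid carrier of gut and kidney, differed by 0.67 ± 0.423 and Slc6a16, an orphan carrier, by 0.27 ± 0.334.

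**Figure D3:**
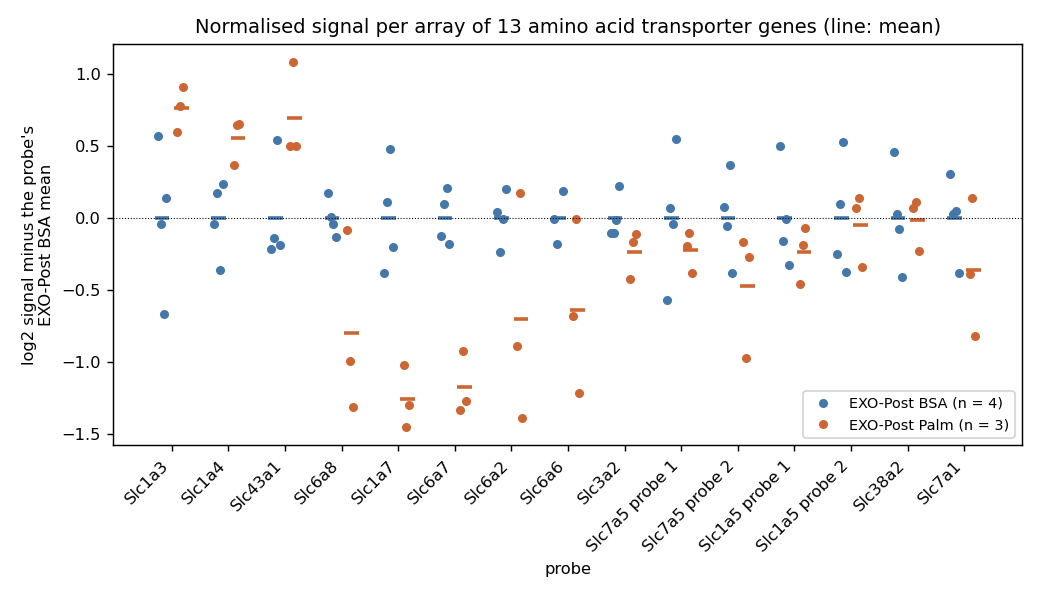
Log2 signal on each array minus the mean of the probe over the EXO-Post BSA arrays (y axis) for 15 probes of 13 genes (x axis), with EXO-Post BSA in blue (n = 4, or 3 for Slc6a6), EXO-Post Palm in orange (n = 3) and lines for means. Slc1a3 and Slc1a4 lie higher on every EXO-Post Palm array, and most other groups overlap. Slc1a7 and Slc6a7 lie lower on every EXO-Post Palm array, but both entered the test through EXO-Post BSA alone.

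The Slc1 family held carriers on both sides. Slc1a3 (GLAST), which takes up glutamate and aspartate with sodium, read 1.16, 0.55, −0.08 and 0.73 in EXO-Post BSA and 1.19, 1.37 and 1.5 in EXO-Post Palm. The lowest EXO-Post Palm array was 1.19 and the highest EXO-Post BSA array 1.16, so the groups were apart only narrowly. The difference was 0.76 ± 0.296 (SE, 95% interval 0.09 to 1.44, limma adjusted p = 0.441, exact permutation p = 0.0571). It was 0.33 within slide 1 and 0.77 within slide 3, and 0.52 with slide as a fixed block, where the unadjusted p of 0.0309 became 0.129.

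Slc1a4 (ASCT1), which carries alanine, serine and cysteine and whose promoter is printed above, read 0.87, 1.09, 0.55 and 1.15 in EXO-Post BSA and 1.28, 1.56 and 1.57 in EXO-Post Palm. All EXO-Post Palm arrays were above all EXO-Post BSA arrays, by 0.55 ± 0.222 on average (SE, 95% interval 0.05 to 1.06, limma adjusted p = 0.459, exact permutation p = 0.0286, the smallest that 4 against 3 arrays allow). With slide as a fixed block the difference was 0.35 (unadjusted p = 0.21), from 0.30 within slide 1 and 0.42 within slide 3. Its relative Slc1a5 (ASCT2) was read at chr7:17383359-17383418 and by the probe printed above. The first gave −0.39, −1.05, −0.90 and −1.22 in EXO-Post BSA and −1.35, −1.08 and −0.96 in EXO-Post Palm, a difference of −0.24 ± 0.249 (SE). The second gave −2.85, −2.50, −2.07 and −2.97 against −2.53, −2.46 and −2.94, a difference of −0.05 ± 0.27 (SE, 95% interval −0.66 to 0.57). Groups overlapped for both Slc1a5 probes. The neuronal glutamate carrier Slc1a6 differed by 0.22 ± 0.252.

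The LAT1 and CD98 pair carries leucine. Slc3a2 read 3.18, 3.18, 3.27 and 3.51 in EXO-Post BSA and 2.86, 3.12 and 3.17 in EXO-Post Palm, and the highest EXO-Post Palm array was just below the lowest EXO-Post BSA array. The difference was −0.23 ± 0.199 (SE, 95% interval −0.69 to 0.22, limma adjusted p = 0.738, exact permutation p = 0.0857), and its sign turned to 0.07 in the authors' values and to 0.08 with normexp. The 2 probes of its partner Slc7a5 lie 25800 bases apart on chromosome 8. The one at chr8:124405136-124405195 read −0.72, −0.08, −0.19 and 0.40 against −0.34, −0.25 and −0.53 (difference −0.23 ± 0.276, SE), and the one printed above read −2.38, −2.51, −2.09 and −2.84 against −2.62, −3.43 and −2.73 (difference −0.47 ± 0.275, SE). Neither passed (limma adjusted p = 0.823 and 0.615), and the 95% intervals of the ratio were 0.553 to 1.32 and 0.467 to 1.11.

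Cationic amino acids enter by CAT1 (Slc7a1) and CAT2 (Slc7a2). Slc7a1 read 2.07, 1.79, 1.81 and 1.38 in EXO-Post BSA and 1.37, 1.90 and 0.94 in EXO-Post Palm, a difference of −0.36 ± 0.28 (SE, 95% interval −0.99 to 0.28). Slc7a2 differed by 0.36 ± 0.266, with overlapping groups. The y+L light chains Slc7a6 and Slc7a7, which also pair with Slc3a2, differed by −0.32 ± 0.275 and −0.21 ± 0.228. Slc7a4, a relative of the CAT carriers with no settled substrate, differed by 0.45 ± 0.387, the highest difference of the family. With slide as a fixed block it was 0.98 (limma unadjusted p = 0.0288), a value on which EXO-Post Palm replicate 2 (−2.33), alone on its slide, does not bear. Slc7a6os differed by 0.31 ± 0.346. No Slc7 probe had an unadjusted p under 0.05 without the slide term.

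Of the Slc38 family the best known muscle member is SNAT2. Slc38a2, read at chr15:96518491-96518550, had values of 4.85, 4.42, 4.31 and 3.98 in EXO-Post BSA and 4.46, 4.50 and 4.16 in EXO-Post Palm. The EXO-Post Palm arrays lay inside the EXO-Post BSA range, and the ratio of the groups was 0.988 (95% interval 0.668 to 1.46, limma adjusted p = 0.99). Slc38a1 (SNAT1), a glutamine carrier, had 3 probes within the same gene, and the 95% intervals of all 3 held 0. The probes differed by 0.08 ± 0.409, 0.72 ± 0.554 and −0.19 ± 0.218 (SE). The second was dim, well above background on 2 of 4 EXO-Post BSA arrays, and entered the test through EXO-Post Palm alone. Slc38a9, the lysosomal arginine sensor of mTORC1, read −0.25, −0.67, −0.55 and −0.29 against −0.38, −1.16 and −0.64, a difference of −0.29 ± 0.246 (SE, 95% interval −0.85 to 0.27). Slc38a6, Slc38a7 and Slc38a10 differed by 0.23, −0.03 and 0.53. The Slc38a10 value rested on EXO-Post Palm replicate 2 at 0.91, and without that array it was −0.08.

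In the Slc43 family Slc43a1 (LAT3), a carrier of branched-chain amino acids that does not need CD98, had the only unadjusted p under 0.05. It read −2.60, −2.52, −1.84 and −2.57 in EXO-Post BSA and −1.88, −1.30 and −1.88 in EXO-Post Palm. EXO-Post BSA replicate 3 reached into the EXO-Post Palm range and the other 3 EXO-Post BSA arrays lay below it. The difference was 0.70 ± 0.27 (SE, 95% interval 0.08 to 1.31, limma adjusted p = 0.44, exact permutation p = 0.114), and it was 0.68 within slide 1 and 0.70 within slide 3. LAT4 (Slc43a2) differed by 0.02 ± 0.276 with a sign that turned under several settings, and Slc43a3, a purine base carrier, by 0.33 ± 0.204. The proton-coupled carriers of the lysosome and cell surface were read poorly. The 2 tested Slc36a1 probes differed by −0.35 ± 0.866 and 0.41 ± 0.587 (SE) and Slc36a4 by 0.64 ± 0.814, with EXO-Post BSA replicate 4 the lowest EXO-Post BSA array in all 3. Without that array the Slc36a4 difference was −0.20.

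Genes that act with these carriers were read from 6 lists, 1 probe per gene, and no gene of any list passed the adjusted threshold. In the amino acid response and serine-proline synthesis list all 30 genes were tested, and the median difference was −0.08. At an unadjusted p under 0.05 with limma 3 were higher and 3 lower, where 4.85% of all tested probes were higher and 5.19% lower. Higher were Cbs of cysteine synthesis (0.88), Phgdh, the entry step of serine synthesis (0.61), and Mthfd1l of mitochondrial folate metabolism (0.59). Lower were Aldh18a1 of proline synthesis (−0.89), the alanine aminotransferase Gpt2 (−0.57) and asparagine synthetase Asns (−0.44). The regulator Atf4 differed by 0.13 ± 0.377, its target Ddit3 by 0.35 ± 0.204, Trib3 by −0.31 ± 0.222 and Chac1 by −0.21 ± 0.268. The C/EBP-ATF letters were in promoters of 6 of the 28 list genes in the promoter table (Asns, Chac1, Nupr1, Pycr1, Trib3 and Vldlr), against 1219 of all 27025 genes in it. These 6 differed by between −0.44 and −0.04, beside 0.55 for Slc1a4 and −0.21 for Slc7a7.

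Among the 23 cytosolic aminoacyl-tRNA synthetases and their scaffold proteins 6 were above 0, where 47.3% of all tested probes were, and the median was −0.21. Eprs, which charges glutamate and proline, differed by −1.17 ± 0.47 (unadjusted p = 0.0354) and Iars, which charges isoleucine, by −0.96 ± 0.407 (unadjusted p = 0.0432), while Farsa was highest (0.30). The lowest value of the list, −4.97 for the scaffold protein Aimp2, rested on 1 array, since EXO-Post Palm replicate 2 read −5.89 and the spot of replicate 3 was left out, beside 3.94 on replicate 1. In mTORC1 and lysosomal amino acid sensing 9 of 25 tested genes were above 0, against 47.3% of all tested probes. The 25 ran from the cystine exporter Ctns at −0.63 (limma unadjusted p = 0.0328) to Sesn3, a sestrin, at 0.72. Mtor differed by 0.07 ± 0.249 and Rptor by −0.24 ± 0.368.

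Of 25 tested genes of amino acid catabolism and glutamine-glutamate metabolism, the glutathione synthetase Gss (0.67, limma unadjusted p = 0.0449) and Gamt had an unadjusted p under 0.05, as did 10.0% of all tested probes. The highest difference, 1.00 for the glutaminase Gls2, had a standard error of 0.701. The branched-chain aminotransferases Bcat1 and Bcat2 differed by −0.46 and −0.41. Among 12 tested genes of other amino acid and peptide carriers the lysosomal carrier Slc17a5 (sialin) stood lowest at −1.65 ± 0.29 (limma adjusted p = 0.0578). It read 3.78, 3.31, 3.29 and 2.91 in EXO-Post BSA and 1.42, 1.40 and 2.20 in EXO-Post Palm, without overlap, and the branched-chain amino acid carrier of mitochondria Slc25a44 was highest of the list at 0.61. The 8 tested partners and regulators of surface turnover ran from −0.42 (Lmbrd1, which anchors a lysosomal cobalamin carrier) to 0.49 (Bsg, the chaperone of lactate carriers). Of these 8, 0 had a limma unadjusted p under 0.05, against 10.0% of all tested probes.

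**Figure D4:**
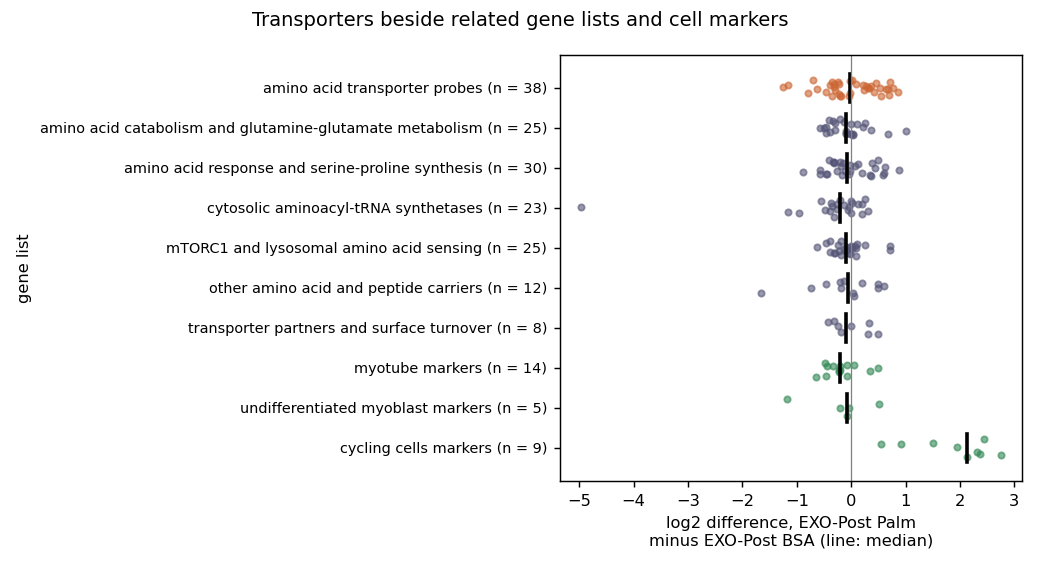
Log2 difference (x axis) of the 38 tested transporter probes, of the tested genes of 6 related lists and of 3 lists of cell markers (y axis), with a line at each median. The transporter median is −0.02, and the 9 tested cycling cell markers lie apart, between 0.54 and 2.76.

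The summed levels of 3 marker lists did not overlap between the groups, those of cycling cells, neurons (above) and macrophages. A sum took 1 probe per listed gene, tested or not, with a value on every array, and genes without one, such as Pcna, were left out. It added signals of different probes, so bright probes weighed most. The separation of the neuron sum came from Snap25, at 2.20 to 3.46 in EXO-Post BSA and 1.02 to 1.41 in EXO-Post Palm. Tubb3 overlapped between the groups. All 9 tested markers of cycling cells were above 0 and 4 passed the adjusted threshold (Bub1, Ccnb1, Mki67 and Top2a), with a median of 2.12. Of all tested probes 47.3% were above 0 and 0.533% passed. When each of the 7 arrays was left out in turn, Ccnb1 passed in 5 fits and Top2a in 3. Bub1 and Mki67 each passed in 1. The summed level of the cycling cell list was 2.23 to 2.60 in EXO-Post BSA and 3.78 to 5.23 in EXO-Post Palm, while Aurkb was well above background on no array. Myotube markers had a median of −0.21 and a summed level of 9.70 to 10.04 in EXO-Post BSA and 9.56 to 9.77 in EXO-Post Palm. Undifferentiated myoblast markers had a median of −0.08 and a summed level of 4.48 to 4.79 against 4.27 to 4.94. Macrophage markers had a summed level of 2.98 to 4.18 in EXO-Post BSA and 2.58 to 2.93 in EXO-Post Palm, in which the bright Itgam weighed most. Of the 4 tested genes 3 were above 0, and the median was 0.51. They lay between −1.63 (Itgam, limma adjusted p = 0.111) and 1.05 (Cd14, limma adjusted p = 0.219). Endothelial markers from −0.12 to −0.03, the single epithelial marker tested (Krt8) was at 0.55, and no adipocyte marker was tested. The part of the cycling cell, neuron and macrophage genes in the transporter values was not tested. Less RNA of a carrier per cell and fewer cells that express it cannot be told apart in RNA of whole cultures.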

How the data were processed

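RNA (0.1 µg) of C2C12 cells given exosomes was read on 1-colour Agilent mouse arrays, 4 EXO-Post BSA and 3 EXO-Post Palm. The authors deposited, per the file headers, Feature Extraction 10.7.3.1 output (11.5.1.1 for EXO-Post BSA replicate 3, a file without gene names, which were joined by probe name). The submitters' processing notes name Agilent Feature Extraction 9.1 and limma. Its processed signal, an intensity, had background subtracted by the software, and arrays were not scaled to each other. A deposited matrix of log2 values from the authors has the same distribution on every array (column medians 6.65). Its rows, deposited by the authors and joined by order, had a rank correlation of 0.994 to 0.999 with spot intensities of the software output. That correlation bears on the order of rows and does not show agreement with the background-subtracted signal used here. Differences of dim probes could depart, as given above for Slc6a7 and Slc1a7. The study's methods name the R package Agi4x44PreProcess beside limma, with no setting of it given.

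Control spots and spots marked as outliers were left out, replicate spots were averaged, and log2 of the processed signal minus each array's 75th percentile (549.4 to 1621 intensity units) was taken. Between 48.5 and 70.3% of probes were well above background per array, and no spot was saturated. The number of arrays limits the precision. Pairs of arrays correlated at 0.962 to 0.984 in the EXO-Post BSA group, at 0.948 to 0.970 in the EXO-Post Palm group and at 0.946 to 0.985 across groups. EXO-Post Palm replicate 1 shared slide 1 with the first 2 replicates of EXO-Post BSA, and EXO-Post Palm replicate 3 shared slide 3 with the fourth. Slides 2 and 4 held 1 array each, EXO-Post BSA replicate 3 and EXO-Post Palm replicate 2. With slide as a fixed block these arrays do not bear on a difference, and 2 residual degrees of freedom are left. Slide was not a term of the reported model, and within-slide differences are given for some members only. For others the 2 slides could differ in sign. The Slc1a5 probe at chr7:17383359-17383418 gave −0.62 within slide 1 and 0.27 within slide 3. The Slc7a5 probe at chr8:124405136-124405195 gave 0.06 and −0.92.

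Tests used limma 3.58.1 under R 4.3.3 (jsonlite 2.0.0 and data.table version 1.17.8) on condition alone, with Benjamini-Hochberg adjustment over 21589 tested probes, 2-sided. Single probes also had a 2-sided exact permutation test over 35 splits. The script was tested on simulated data. Figures used Python 3.11.15, pandas 2.3.3 and matplotlib 3.10.9. Coordinates of probes (mm9) come from the array annotation. Promoters are RefSeq, GRCm38.p6.

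Named genes are members at an adjusted or unadjusted p under 0.05, the largest rise and fall of each family, 21 carriers of muscle amino acid uptake and the largest rise and fall of each list. Others were named to account for all tested members, and regulators and marker genes for their known role. A listed gene was read by 1 probe. Not every member without a tested probe is named, and 1 is not reported here. Members and lists were chosen with earlier results of these data known. Alternatives covered normexp (offset 50, on the median signal, since the mean signal is missing from 1 file) with quantile normalisation, other scalings, the authors' values, a looser and a stricter probe filter, slide as a fixed or random block, the replicate number as a block, array weights, a trended and robust variance, the methods' t-test, 1 probe per gene and each array left out.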

Additional observations from a re-analysis of the deposited data

Results flagged for a closer look

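In 3 of 37 groups of 4 EXO-Post BSA values, 1 array stood far from the others by Dixon's ratio of the gap to the whole range, where chance gives about 5%. For Slc38a7, EXO-Post BSA replicate 4 read 0.21 and the nearest array −0.18 (ratio 0.89). For Slc43a1, EXO-Post BSA replicate 3 read −1.84 and the nearest array −2.52 (ratio 0.895). For Slc38a1 (the probe at chr15:96402753-96402812), EXO-Post BSA replicate 4 read −0.35 and the nearest array −0.79 (ratio 0.852).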

How the results depend on the processing

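The number of transporter probes past an adjusted p of 0.05 was 0 and became 1, Slc6a7 on the lower side, with quantile normalisation of the processed signal (−1.23), with slide as a random block (−1.18) and with array weights (−1.24). It was 0 to 1 with single arrays left out, the 1 being Slc6a7 without EXO-Post Palm replicate 2 (−1.30). Slc6a7 had entered the test through EXO-Post BSA alone, and nothing is read from its passing. Its difference was −0.24 with normexp (limma adjusted p = 0.673) and −0.43 in the authors' values (limma adjusted p = 0.513). The number at an unadjusted p under 0.05 was 6 and became 3 with the median in place of the 75th percentile, where 8.72% of all tested probes were. It was 3 of 77 without a probe filter, against 4.82% of all probes, with 0 higher and 3 lower in both settings. With single arrays left out it was 3 to 6, the lowest count arising without EXO-Post Palm replicate 3 and also without replicate 1 or 2 of EXO-Post BSA. The median difference stayed between −0.08 and 0.05 under all settings run. Deviations of same-numbered replicates correlated at 0.121, −0.151 and −0.147. With so few arrays these values cannot decide whether equal numbers were prepared together, and the labels do not say. The replicate block, which drops EXO-Post BSA replicate 4, gave 3 probes at an unadjusted p under 0.05 (0 higher and 3 lower), an adjusted p of 0.267 for Slc6a7, Slc36a4 at −0.20 and the second Slc36a1 probe at −0.05. The other signs that turned all belonged to differences that did not pass. With normexp, Slc3a2 was 0.08, Slc38a2 0.20 and the second Slc1a5 probe 0.01. In the authors' values they were 0.07, 0.20 and 0.04. Slc7a7 turned to 0.10 and 0.09 under these 2 settings and Slc43a3 to −0.04 under both. Slc38a2 was 0.06 with quantile normalisation. Slc43a2 was −0.04 with median scaling, −0.31 with slide as a fixed block and −0.04 with it as a random block. The fixed block also gave 0.29 for the first Slc36a1 probe and 0.09 for the second Slc1a5 probe. With single arrays left out Slc38a2 ranged from −0.15 to 0.14, the first Slc38a1 probe from −0.20 to 0.43, Slc43a2 from −0.20 to 0.15, the first Slc36a1 probe from −1.04 to 0.49, the second from −0.05 to 0.78, Slc36a4 from −0.20 to 1.1 and the second Slc1a5 probe from −0.17 to 0.13. The causes were not tested. The number of arrays limited the precision, with a median standard error of 0.275.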
